A study of Homo sapiens with 16 samples.

Results

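The serpins are a family of proteins built on a shared fold, most of which inhibit proteases. All genes whose symbol on the array begins with SERPIN were taken, which gave 33 genes of 18239 measured, each read from its brightest probe set of a single symbol, by the mean over 16 arrays. SK-N-SH is an established human neuroblastoma line, known for holding neuroblast-like and substrate-adherent cells side by side, and it was exposed in culture to 10 µM risperidone, an antipsychotic and antagonist at dopamine and serotonin receptors. Total RNA was hybridised to 16 Human Genome U219 arrays: 4 of untreated cells and 4 each of cells exposed for 6, 24 and 48 h. The control arrays are labelled as untreated, while the treatment protocol gives controls the DMSO vehicle alone, and the time at which they were harvested is not given. All groups were grown to near confluence before exposure and came from the same line. Values were log2 units after robust multi-array averaging (RMA), and each change below is a difference of group means on that scale.

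A typical serpin offers the protease a flexible reactive loop. The protease cuts the loop and is trapped in a covalent complex, so that the inhibitor is consumed with its target. Extracellular serpins restrain thrombin, plasmin and the plasminogen activators, often with heparan sulfate as a cofactor. Clade B serpins lack a classical signal peptide and act mostly inside cells on leukocyte proteases and cathepsins, while a few members, such as SERPINF1 and SERPINH1, inhibit no protease. In nervous tissue the best known members are SERPINI1 (neuroserpin) and SERPINE2 (protease nexin-1), both linked to neurite growth and synaptic plasticity.

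Few serpins were read above background in these cells, and most of those that were fell with risperidone. The table holds no detection calls, so the background was set from 475 genes of the olfactory receptor, taste receptor, keratin-associated and beta-defensin families. The 95th percentile of their group means was 4.05 in untreated cells, 4.12 at 6 h, 4.16 at 24 h and 4.15 at 48 h. In all 4 groups 9 serpins were above it, namely SERPINA5, SERPINB1, SERPINB7, SERPINB8, SERPIND1, SERPINE2, SERPINF1, SERPINH1 and SERPINI1. SERPINB9 was above it at 6 h and 24 h only. The other 23 members were near background in every group. With the 99th percentile as the limit, between 5.27 and 5.50 by group, 25 members were near background in every group.

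**Figure D1:**
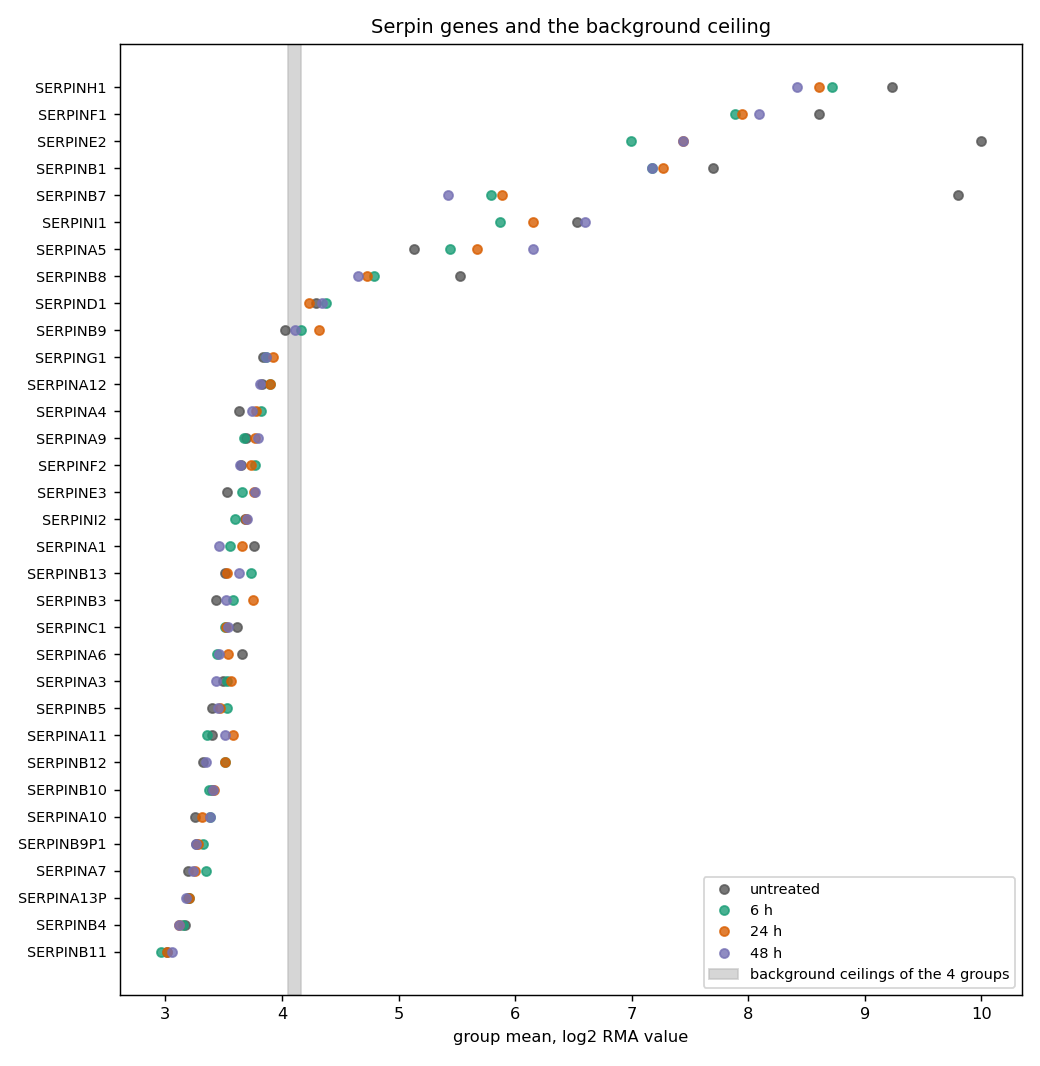
Group means (log2 RMA value, horizontal axis) of the 33 serpin genes (vertical axis), 1 dot per group of 4 arrays, with the span of the 4 background ceilings, 4.05 to 4.16, in grey. The 9 genes to the right of the band in all groups end with SERPIND1, and 23 genes lie to the left of it or within it at every time.

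Differences were tested with limma on the 13680 genes left after removal of the dimmest 25%, with Benjamini-Hochberg adjustment over all of them, and a gene was counted as changed at an adjusted p under 0.05. Of the serpins 17 passed that filter and 16 did not. At 6 h, 7 of the 17 fell, where 16.7% of all tested genes were lower, and 2 rose, where 36.6% were higher. At 24 h, 7 of the 17 fell (16.9% of all tested genes were lower) and 3 rose (35.2% were higher). At 48 h, 6 of the 17 fell (21% of all tested genes were lower) and 2 rose (36% were higher). The rises include SERPINA4 at 6 h and SERPINE3 at 24 h and 48 h, which passed the filter only through their treated groups. A difference at any time by the moderated F test was found for 9 of the 17, against 66.6% of all tested genes.

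The genes that fell at all 3 times were SERPINB1, SERPINB7, SERPINB8, SERPINE2, SERPINF1 and SERPINH1, and SERPINI1 fell at 6 h and 24 h. SERPINA5 was the member that rose at all 3 times. The median change of the 17 members was -0.03, 0.01 and 0.01 at 6, 24 and 48 h, and that of all tested genes was 0.09, 0.09 and 0.08. The 3 comparisons share the untreated arrays. The split of calls over all genes depended on the scaling: 68.7% of the genes called at 6 h, 67.6% at 24 h and 63.1% at 48 h were higher as deposited, and 49.4%, 49.5% and 49.0% after cyclic loess. The direction of each serpin call was kept under every scaling tried, but after cyclic loess the calls of SERPINA4 at 6 h (0.14) and SERPINB9 at 24 h (0.22) were lost.

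**Figure D2:**
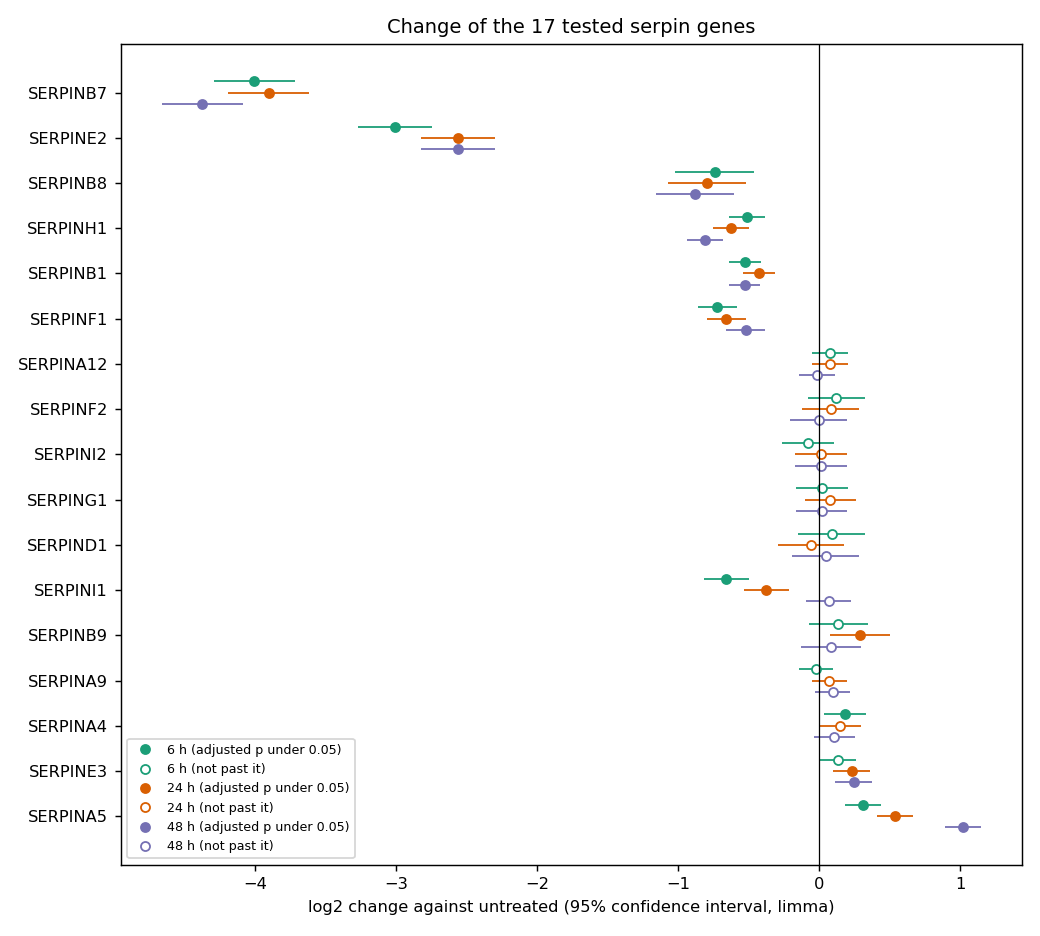
Log2 change from untreated (horizontal axis) of the 17 tested serpin genes (vertical axis) at 6, 24 and 48 h, with bars for the 95% confidence interval and filled symbols for an adjusted p under 0.05. SERPINB7 and SERPINE2 stand far to the left, at -4.38 to -2.56, and SERPINA5 moves to the right with time, from 0.31 to 1.02.

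The groups also differed in markers of the cell states of the line. The mean level of 17 mesenchymal markers lay between 9.19 and 9.39 in the untreated arrays, 6.97 and 7.30 at 6 h, 7.21 and 7.28 at 24 h, and 7.02 and 7.17 at 48 h, and 16 of the 17 fell at each time. Of 14 adrenergic neuroblast markers, all read above background in every group, 14, 13 and 13 rose at 6, 24 and 48 h, with a mean level of 10.35 to 10.42 in untreated arrays and 10.98 to 11.05 at 48 h. Fewer cells of a type and less RNA per cell cannot be told apart in such bulk samples. The mesenchymal marker TWIST1 did not fall, with means of 12.64, 12.6, 12.63 and 12.81 in the 4 groups, and 1 mesenchymal marker rose at 48 h. The part of these marker changes in the serpin results was not tested.

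SERPINE2, the inhibitor of thrombin, urokinase and plasmin that is released by glia and fibroblasts, was read at a high level in untreated cells and fell steeply within 6 h. Its probe set read 10.03, 9.96, 10.07 and 9.95 in untreated arrays 1 to 4, then 7.40, 7.0, 6.67 and 6.90 at 6 h. It read 7.73, 7.43, 7.29 and 7.32 at 24 h and 7.32, 7.44, 7.36 and 7.65 at 48 h. Every treated array lay more than 2 units below every untreated array, and the 3 treated groups lay close together. The level fell by 3.01 ± 0.12 (SE, n = 4 arrays a group) at 6 h, an 8.06-fold lower signal (limma adjusted p = 2.66e-12), and the change was -2.56 at 24 h (adjusted p = 2.28e-11) and -2.56 at 48 h (adjusted p = 1.66e-11). The fall ranked 96, 127 and 149 among all tested genes. All 5 further probe sets of the gene fell too, by 3.48 to 0.42 at 6 h, and the small changes belonged to probe sets that read 3.64 and 4.29 in untreated cells.

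The promoters of SERPINB7, SERPINE2 and SERPINA5, whose largest change at any time exceeded that of the other serpins, are shown so that the letters ahead of their start sites can be read beside their levels. The 250 bases before each start were searched on both strands, and matches are in capitals. The letters searched for the TATA box were TATAAA. For TEAD factors they were GGAATG and for AP-1 they were TGANTCA, with N for any base. For SMAD proteins they were CAGAC and for the factor SP1 they were GGGCGG. The sequences are those of RefSeq (GRCh38.p14), where 25 members had 36 promoters. Which start these cells use is not known. SERPINE2 has 2 listed starts, and the upstream one, at chr2:224038641-224038890 on the minus strand, is GC-rich at 75.2%:
SERPINE2: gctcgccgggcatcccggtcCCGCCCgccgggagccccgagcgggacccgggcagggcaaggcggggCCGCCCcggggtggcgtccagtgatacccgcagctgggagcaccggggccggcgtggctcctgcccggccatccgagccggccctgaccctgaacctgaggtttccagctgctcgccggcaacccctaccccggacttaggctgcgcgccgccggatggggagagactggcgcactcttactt
It holds 2 SP1 matches, 230 and 183 bases before the start, and none of the other 4 motifs. An SP1 match occurs in 42.6% of all 35116 promoters of this length, and in 9 of the 36 serpin promoters. A match describes the letters only, not a bound site.

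SERPINI1, or neuroserpin, inhibits tissue plasminogen activator and is made mainly by neurons. It fell early and was back in the untreated range by 48 h. Its only probe set read 6.50, 6.44, 6.54 and 6.63 in untreated arrays 1 to 4 and 5.84, 6.04, 5.77 and 5.82 at 6 h. It read 6.07, 6.22, 6.26 and 6.06 at 24 h and 6.59, 6.40, 6.66 and 6.73 at 48 h. The 6 h arrays lay below all others, the 24 h arrays lay between them and the untreated arrays, and the 48 h arrays overlapped the untreated arrays. The change was -0.66 ± 0.08 (SE) at 6 h (limma adjusted p = 1.38e-06), -0.38 at 24 h (adjusted p = 0.00051) and 0.07 at 48 h (adjusted p = 0.469), the last with a 95% confidence interval from -0.09 to 0.23.

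SERPINA5, the protein C inhibitor, a heparin-dependent inhibitor of activated protein C, thrombin and urokinase, was the serpin that rose in each comparison with untreated cells. Its only probe set read 5.23, 5.15, 4.92 and 5.21 in untreated arrays 1 to 4 and 5.45, 5.41, 5.47 and 5.42 at 6 h. It read 5.65, 5.67, 5.70 and 5.65 at 24 h and 6.08, 6.13, 6.12 and 6.27 at 48 h. No 2 groups overlapped, and the order from untreated to 48 h was that of exposure time. The rise was 0.31 ± 0.06 (SE) at 6 h (limma adjusted p = 0.000386), 0.54 at 24 h (adjusted p = 1.05e-06) and 1.02 at 48 h (adjusted p = 2.25e-10), the last a 2.03-fold higher signal. After cyclic loess the 6 h rise was 0.19. The level is low for this array, under the 99th percentile of the background families in untreated cells. The promoter at chr14:94581176-94581425 on the plus strand (64.4% GC) holds a TEAD, a SMAD and an SP1 match, 222, 130 and 74 bases before the start:
SERPINA5: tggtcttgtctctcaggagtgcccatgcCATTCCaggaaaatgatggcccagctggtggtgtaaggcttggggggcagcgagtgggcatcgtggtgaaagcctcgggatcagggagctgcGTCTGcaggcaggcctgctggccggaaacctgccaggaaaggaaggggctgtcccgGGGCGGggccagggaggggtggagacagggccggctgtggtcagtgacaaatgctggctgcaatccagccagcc
TEAD matches occur in 11.9% of all promoters and in 4 of the 36 serpin promoters, and SMAD matches in 38% and in 14.

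SERPIND1, heparin cofactor II, an inhibitor of thrombin made by the liver, was just above background in every group, with means of 4.29, 4.38, 4.23 and 4.34. Its changes of 0.09, -0.06 and 0.05 did not pass the test, with 95% confidence intervals from -0.15 to 0.32 at 6 h, -0.30 to 0.18 at 24 h and -0.19 to 0.28 at 48 h. The lowest arrays at 24 h and 48 h, at 4.14 and 4.13, lay just under the ceiling. Its other probe set read 3.19, 3.26, 3.28 and 3.22 in the 4 groups, under the ceiling throughout.

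**Figure D3:**
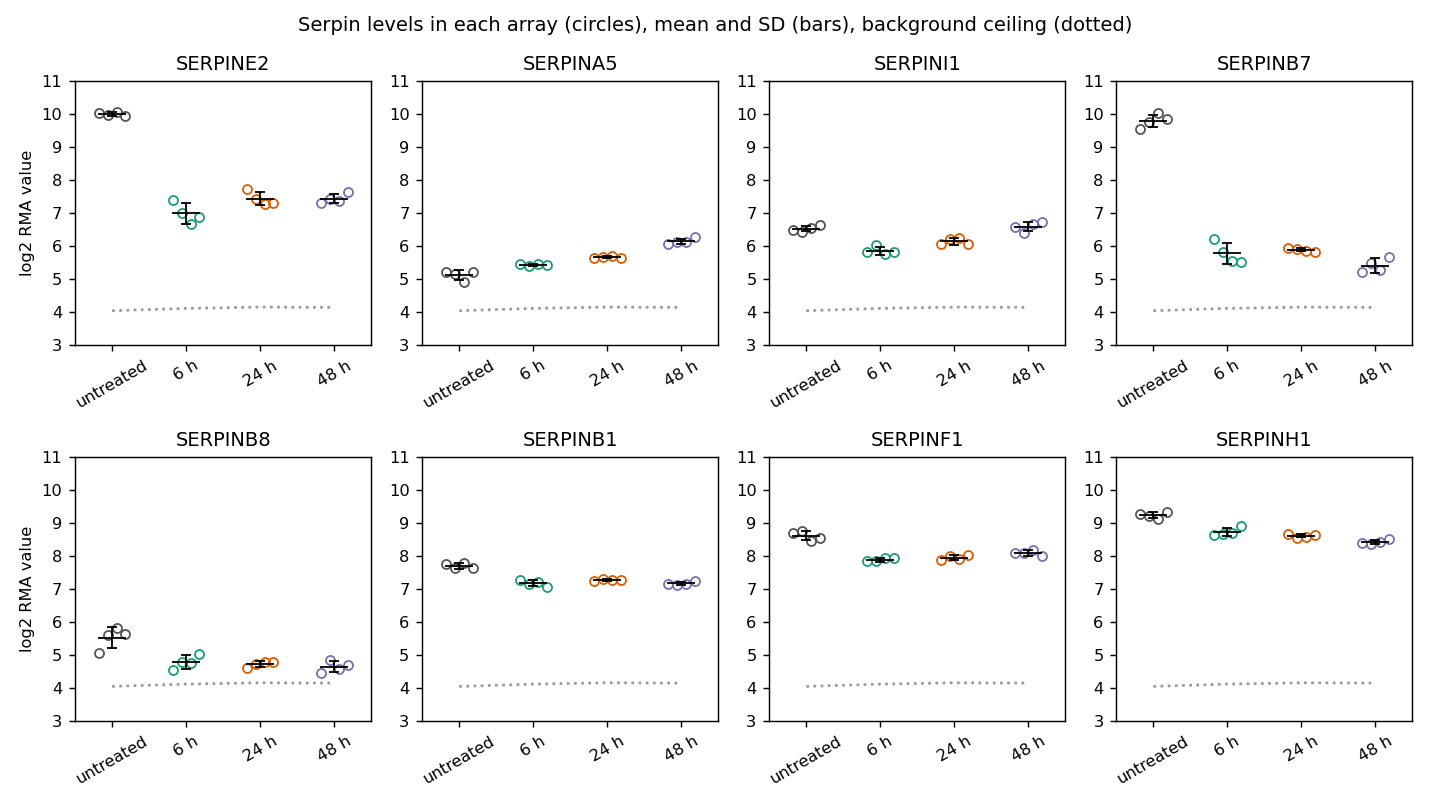
Log2 RMA value (vertical axis) of 8 serpin genes in each of the 16 arrays (circles), by group (horizontal axis), with the mean and SD of 4 arrays in black and the background ceiling dotted. In SERPINB7 and SERPINE2 the untreated arrays stand near 10 and the treated arrays between 5.21 and 7.73, and in SERPINI1 the 48 h arrays are back among the untreated ones.

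A list of 42 genes covered the plasminogen and thrombin systems, and not all of them are proteases or targets of serpins. Of the 42 genes 34 were tested. Of these 7 rose and 14 fell at 6 h, 6 and 14 at 24 h, and 6 and 13 at 48 h, with a median change of 0.04, 0.01 and -0.03 beside 0.09, 0.09 and 0.08 over all tested genes. The shares of all tested genes that rose and fell were 36.6% and 16.7%, 35.2% and 16.9%, and 36% and 21%. PLAT, tissue plasminogen activator and the target of SERPINI1, fell by 3.67 ± 0.14 (SE) at 6 h from 10.20, and was still lower by 3.13 at 48 h. ANXA2 and S100A10, which together bind plasminogen at the cell surface, changed by -3.00 and -2.42 at 6 h, both past the threshold. FAP, a serine protease of stromal cells, fell by 3.28 at 6 h, to 3.89, under the background ceiling. Of the 27 serpin cofactors and clearance receptors 19 were tested, and 6 rose and 9 fell at 6 h, 4 and 9 at 24 h, and 5 and 9 at 48 h, against 36.6% and 16.7%, 35.2% and 16.9%, and 36% and 21% of all tested genes (median change -0.12, -0.12 and -0.11 beside 0.09, 0.09 and 0.08 over all). Among them SDC4, a heparan sulfate carrier, fell by 2.24 and EXT1, which builds heparan sulfate chains, fell by 1.19 at 6 h. NDST1, which sulfates those chains, rose by 1.29 ± 0.08 at 48 h, and GPC6, a glypican, rose by 0.71.

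Among the intracellular clade B serpins, SERPINB7 showed the largest change of the family. SERPINB7, also called megsin, is known from kidney mesangial cells and the upper epidermis. Its probe set read 9.56, 9.76, 10.02 and 9.84 in untreated arrays 1 to 4 and 6.23, 5.83, 5.56 and 5.53 at 6 h. It read 5.94, 5.91, 5.87 and 5.84 at 24 h and 5.21, 5.50, 5.28 and 5.68 at 48 h. All treated arrays lay far below all untreated arrays, yet above the background ceiling. The 48 h mean of 5.42 was under the 99th percentile of the background families, 5.45 at that time. The level fell by 4.01 ± 0.14 (SE) at 6 h, a 16.1-fold lower signal (limma adjusted p = 2.6e-13), by 3.91 at 24 h (adjusted p = 4.33e-13) and by 4.38 at 48 h (20.8-fold, adjusted p = 7.54e-14). Among all tested genes this fall ranked 26, 12 and 7. The other probe set of the gene fell too, from 7.14 in untreated cells to 3.30, 3.42 and 3.19, under the background ceiling, so that the size of its fall is not exact.

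SERPINB7 has 3 listed starts, and the most downstream, at chr18:63777531-63777780 on the plus strand (26% GC), holds the most matches:
SERPINB7: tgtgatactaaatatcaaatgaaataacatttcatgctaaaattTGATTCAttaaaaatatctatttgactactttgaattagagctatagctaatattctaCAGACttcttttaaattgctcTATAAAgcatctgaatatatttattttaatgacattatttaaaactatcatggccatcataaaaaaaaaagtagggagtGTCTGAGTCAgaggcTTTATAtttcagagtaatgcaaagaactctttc
The TATA matches lie 127 and 33 bases before the start. The AP-1 matches lie 206 and 45 bases before the start and the SMAD matches 148 and 48, the last overlapping the nearer AP-1 match. The middle start also has 2 AP-1 matches, 154 and 39 bases before it. AP-1 matches occur in 6.57% of all promoters and in 8 of the 36 serpin promoters, and TATA matches in 10.7% and in 7. The nearest measured neighbours on either side in RefSeq's gene order, SERPINB11 and SERPINB10, were near background in every group.

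SERPINB8 and SERPINB1 fell less. SERPINB8, an inhibitor of furin, read 5.07, 5.60, 5.81 and 5.63 in untreated arrays 1 to 4 and 4.55, 4.80, 4.75 and 5.04 at 6 h. It read 4.60, 4.74, 4.80 and 4.79 at 24 h and 4.45, 4.84, 4.59 and 4.70 at 48 h. Every untreated array lay above every treated array, array 1 only just, and the 3 treated groups overlapped. The treated means of 4.79, 4.73 and 4.65 were under the 99th percentile of the background families, between 5.43 and 5.50. The level fell by 0.74 ± 0.13 (SE) at 6 h (limma adjusted p = 0.000152), by 0.80 at 24 h (adjusted p = 7.74e-05) and by 0.88 at 48 h (adjusted p = 1.92e-05). Of its 3 further probe sets 1 fell, to below the background ceiling, and 2 near background did not pass, so that the mean over all probe sets changed less, by -0.41, -0.47 and -0.52 at the 3 times.

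SERPINB1 inhibits neutrophil elastase, cathepsin G and proteinase 3. Its only probe set read 7.76, 7.62, 7.79 and 7.62 in untreated arrays 1 to 4 and 7.26, 7.15, 7.22 and 7.06 at 6 h. It read 7.23, 7.31, 7.26 and 7.28 at 24 h and 7.16, 7.13, 7.14 and 7.24 at 48 h. The treated arrays were all below the untreated arrays and hardly differed among the 3 times. The level fell by 0.53 ± 0.05 (SE) at 6 h (limma adjusted p = 3.29e-07), 0.43 at 24 h (adjusted p = 3.74e-06) and 0.53 at 48 h (adjusted p = 2.01e-07).

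SERPINB9, the granzyme B inhibitor and a neighbour of SERPINB1 in RefSeq's gene order, read 3.85, 4.21, 3.92 and 4.12 in untreated arrays 1 to 4 and 4.17, 4.47, 4.27 and 4.35 at 24 h. The groups overlapped at the edge of the background. The rise of 0.29 ± 0.10 (SE) at 24 h passed the test (limma adjusted p = 0.0219), and the changes of 0.14 at 6 h and 0.08 at 48 h did not. Without untreated array 1, untreated array 3 or 24 h array 2 the 24 h change was 0.23, 0.26 and 0.24 and no longer passed. It also did not pass after cyclic loess or with array weights, at 0.22 and 0.24, and the mean over its 4 probe sets passed at 0.15.

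Of 28 leukocyte and intracellular proteases, not all of them targets of clade B serpins, 14 were tested. At 6, 24 and 48 h 1 rose each time and 7, 7 and 8 fell, where 36.6%, 35.2% and 36% of all tested genes rose and 16.7%, 16.9% and 21% fell. The median change was -0.21, -0.19 and -0.33, beside 0.09, 0.09 and 0.08 over all. CASP8 and CASP4, caspases of cell death and inflammation, fell by 2.86 ± 0.10 (SE) and 1.60 ± 0.10 at 6 h, to means of 3.88 and 4.05, under the background ceiling. CAPN2, a calpain subunit, fell by 0.98 at 6 h, and CTSV, a cathepsin, fell by 0.80 at 48 h. Leukocyte markers were mostly at background: of 14 measured, 3 were above the ceiling in untreated cells and 2 at 48 h, and PTPRC, which defines leukocytes, read 3.16 and 3.20 there.

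Of the serpins that inhibit no protease, SERPINF1 and SERPINH1 were above background, and both fell. SERPINF1, or pigment epithelium-derived factor, is a secreted protein with neurotrophic and antiangiogenic activity. Its probe set read 8.70, 8.75, 8.45 and 8.54 in untreated arrays 1 to 4 and 7.84, 7.83, 7.94 and 7.94 at 6 h. It read 7.87, 8.0, 7.91 and 8.02 at 24 h and 8.08, 8.08, 8.19 and 8.0 at 48 h. The treated arrays were lower than the untreated arrays without overlap. The level fell by 0.72 ± 0.06 (SE) at 6 h (limma adjusted p = 6.65e-08), by 0.66 at 24 h (adjusted p = 2.09e-07) and by 0.52 at 48 h (adjusted p = 2.46e-06). The 4 further probe sets fell by 0.66 to 0.76 at 6 h.

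SERPINH1, or HSP47, is the chaperone of procollagen in the endoplasmic reticulum. Its probe set read 9.26, 9.22, 9.12 and 9.32 in untreated arrays 1 to 4 and 8.63, 8.67, 8.68 and 8.89 at 6 h. It read 8.65, 8.55, 8.58 and 8.64 at 24 h and 8.38, 8.37, 8.42 and 8.52 at 48 h. Untreated arrays were the highest and 48 h arrays the lowest, each without overlap with any other group. The level fell by 0.51 ± 0.06 (SE) at 6 h (limma adjusted p = 1.76e-06), by 0.63 at 24 h (adjusted p = 1.58e-07) and by 0.81 at 48 h (adjusted p = 4.22e-09). Both further probe sets fell, by 0.55 and 0.59 at 6 h and by 0.73 and 0.79 at 48 h.

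Of 29 genes of collagen folding and assembly 27 were tested, and 1 rose and 19 fell at 6 h, 1 and 16 at 24 h, and 2 and 19 at 48 h, against 36.6% and 16.7%, 35.2% and 16.9%, and 36% and 21% of all tested genes (median change -0.28, -0.18 and -0.23 beside 0.09, 0.09 and 0.08 over all). PCOLCE2, an enhancer of procollagen processing, fell by 2.59 ± 0.11 (SE) at 6 h, to 3.75, under the background ceiling. LOX, which cross-links collagen, fell by 1.77, and SPARC, a collagen-binding matrix protein, fell by 1.33. FKBP14, a prolyl isomerase of the endoplasmic reticulum, fell by 0.67.

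**Figure D4:**
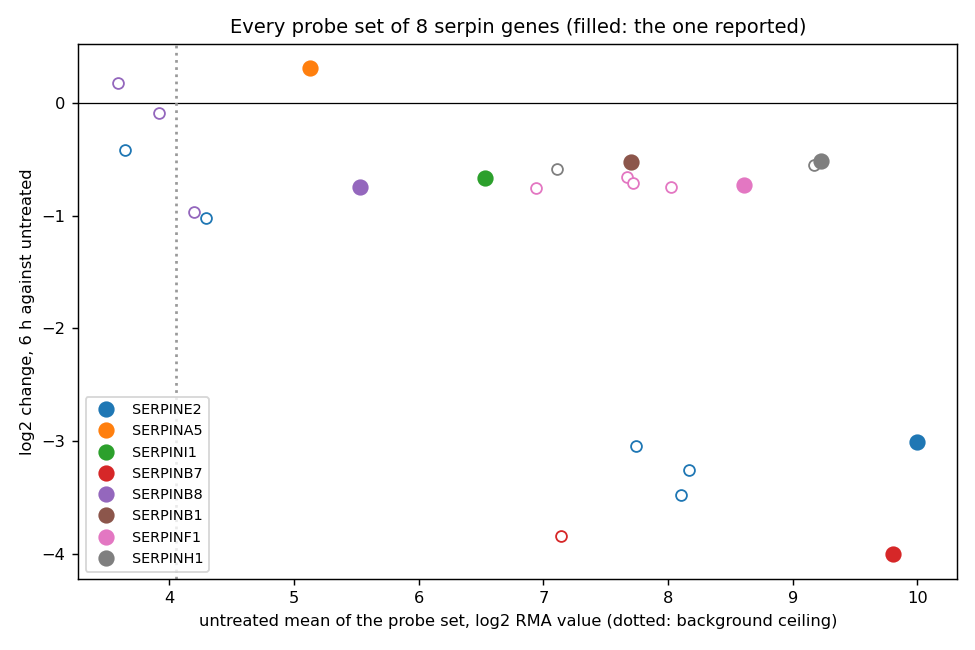
Log2 change at 6 h against untreated (vertical axis) of every single-symbol probe set of 8 serpin genes against its untreated mean (log2 RMA value, horizontal axis), filled for the probe set reported and dotted at the background ceiling of 4.05. Probe sets of a gene that read well above the ceiling lie at similar changes, and the smallest changes of SERPINE2 and SERPINB8 belong to probe sets near it.

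The exposure times were then set against each other. Between 24 h and 6 h 0 of the 17 serpins passed the limma test, where 1.55% of all tested genes were higher and 0.855% lower. These shares do not apply to the counts that follow, which are at other settings. Under the alternatives 0 to 3 serpins passed. In the reported fit 3 had an unadjusted p under 0.05. Those 3 were SERPINE2, with a difference of 0.45 (adjusted p = 0.0746), SERPINA5, with 0.23 (adjusted p = 0.0585), and SERPINI1, with 0.29 (adjusted p = 0.0614). The SERPINE2 difference was 0.59 and passed without 6 h array 1, the highest of its group. In a fit of all probe sets its 5 further ones differed by 0.07 to 0.76, and 1 of them passed. SERPINI1 passed without 6 h array 2, at 0.34, and without 48 h array 2 or 4, which enter through the shared spread. SERPINA5 passed without untreated array 1 or 3 or 48 h array 4, at an unchanged 0.23.

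Between 48 h and 24 h SERPINA5 rose further and SERPINI1 rose back to its untreated level, where 13.5% of all tested genes were higher. SERPINB7 and SERPINH1 fell further, where 15.1% were lower. SERPINA5 rose by 0.48 ± 0.06 (SE, limma adjusted p = 2.16e-05) and SERPINI1 by 0.44 ± 0.08 (adjusted p = 0.00035). SERPINB7 fell by 0.47 ± 0.14 (adjusted p = 0.0148) and SERPINH1 by 0.18 ± 0.06 (adjusted p = 0.0309). In a fit of all probe sets the further ones changed by -0.23 for SERPINB7 and by -0.18 and -0.15 for SERPINH1, and none passed. Without 48 h array 1 the SERPINB7 change was -0.40 and that of SERPINH1 -0.17, and neither passed, which left 2 of the 4 calls. The SERPINH1 call was also lost without 24 h arrays 1, 3 or 4 or 48 h arrays 2 or 3, at -0.17, -0.19, -0.17, -0.17 and -0.18.

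Between 48 h and 6 h 4 serpins rose (16.7% of all tested genes were higher) and 2 fell (17% were lower). SERPINI1 rose by 0.73 ± 0.08 (SE, limma adjusted p = 2.29e-06) and SERPINA5 by 0.71 ± 0.06 (adjusted p = 3.05e-07). SERPINE2 was higher by 0.45 ± 0.12 (adjusted p = 0.0102) and SERPINF1 by 0.20 ± 0.06 (adjusted p = 0.0249), so both remained below the untreated level but less so. SERPINH1 fell by 0.30 ± 0.06 (adjusted p = 0.00118) and SERPINB7 by 0.37 ± 0.14 (adjusted p = 0.0446). The SERPINB7 call was lost in 18 of 29 alternatives, and without 6 h array 1 the change was -0.22. The SERPINF1 call was lost without 6 h array 1 or 2 or 48 h array 3, at 0.18, 0.18 and 0.17, and with the mean over its probe sets, at 0.11.

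The 23 members near background in every group came from most branches of the family: 10 of the 11 members of clade A, 8 of the 12 of clade B, and SERPINC1, SERPINE3, SERPINF2, SERPING1 and SERPINI2. All their values lay between 2.91 and 4.16. Among them were the plasma inhibitors made by the liver, such as SERPINA1 (alpha-1-antitrypsin), with values from 3.25 to 3.89, SERPINA3 (alpha-1-antichymotrypsin), from 3.24 to 3.67, and SERPINC1 (antithrombin), from 3.43 to 3.82. SERPING1, the C1 inhibitor of complement, reached 4.16 and SERPINF2, the alpha-2-antiplasmin gene, 4.05. The epithelial clade B genes SERPINB3, SERPINB4, SERPINB5 and SERPINB13 read between 3.03 and 3.95. Another 4 probe sets match both SERPINB3 and SERPINB4, which are near-identical, and read between 2.92 and 3.76. The remaining members near background were SERPINA4, SERPINA6, SERPINA7, SERPINA9, SERPINA10, SERPINA11, SERPINA12, SERPINB10, SERPINB11, SERPINB12 and the pseudogenes SERPINA13P and SERPINB9P1.

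Markers of other tissues were mostly at background as well. Of 15 hepatocyte markers 1, 0, 0 and 0 were above the ceiling in the 4 groups, and ALB read 3.34 in untreated cells. Of 12 squamous epithelium markers 1, 1, 2 and 1 were above it, with KRT5 at 3.16 and KRT10 at 9.38, and of 12 endothelial and platelet markers 1, 1, 1 and 0, with PECAM1 at 3.64. Of 7 Schwann cell and glial markers 2, 1, 1 and 1 were above it. S100B was above it in every group, at 5.32, 5.93, 5.89 and 5.71, and MBP in untreated cells only, at 5.61.

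Changes of the near-background members were small, from -0.22 to 0.22 at 6 h, -0.13 to 0.32 at 24 h and -0.30 to 0.25 at 48 h. Only 7 of them passed the filter, and 2 of these were called: SERPINA4 (kallistatin) at 6 h, with 0.18 ± 0.07 (SE, limma adjusted p = 0.0362), and SERPINE3 at 24 h, with 0.23 ± 0.06 (adjusted p = 0.00473), and 48 h, with 0.25 ± 0.06 (adjusted p = 0.00254). SERPINE3 read 3.47, 3.54, 3.44 and 3.65 in untreated arrays 1 to 4 and 3.87, 3.72, 3.68 and 3.75 at 24 h, without overlap and entirely within the background range. The SERPINA4 call was lost without untreated array 1 or 3 or 6 h array 1, 2 or 3, at 0.17, 0.13, 0.18, 0.18 and 0.16. It was also lost after cyclic loess, at 0.14, with array weights, at 0.16, and with a trended, robust variance prior, at an unchanged 0.18. SERPINA4 and SERPINE3 read 3.63 and 3.53 in untreated cells, under the filter's limit of 3.65, and met it only through their treated groups. Their rises are thus not independent of the filter. SERPINA9, SERPINA12, SERPINF2, SERPING1 and SERPINI2 passed the test at no time. Without the filter on dim genes SERPINA1 (-0.22 at 6 h and -0.30 at 48 h), SERPINA6 (-0.22 and -0.20), SERPINB12 (0.19 at 6 h and 24 h) and SERPINB3 (0.32 at 24 h) also passed.

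A list of 20 genes covered the classical complement pathway and its regulators, not all of them targets of SERPING1. Of these 11 were tested, and 1 rose and 6 fell at each time. Over all tested genes 36.6%, 35.2% and 36% rose and 16.7%, 16.9% and 21% fell. The median change was -0.27, -0.25 and -0.61, beside 0.09, 0.09 and 0.08 over all. CLU (clusterin) fell by 1.84 ± 0.13 (SE) at 6 h, the protease C1R by 0.81, and the regulators CD59 and CD46 by 0.76 and 0.59. Of 44 inhibitors of proteases outside the serpin family 28 were tested, and 1 rose and 10 fell at 6 h, 5 and 10 at 24 h, and 6 and 10 at 48 h, against 36.6% and 16.7%, 35.2% and 16.9%, and 36% and 21% of all tested genes (median change -0.05, -0.01 and -0.03 beside 0.09, 0.09 and 0.08 over all). CAST, the calpain inhibitor, fell by 1.18 ± 0.07 and TIMP1, a metalloproteinase inhibitor, by 0.95 ± 0.06 at 6 h, while TIMP3 rose by 0.69 ± 0.05 at 48 h. SPOCK1 (testican-1) fell at 6 h, by 1.22 ± 0.11, and read 0.06 below the untreated level at 48 h, a difference that did not pass.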

How the data were processed

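The file used is the table of processed values the authors deposited, with 49386 probe sets and 16 arrays. Its values are log2 expression after RMA, per the submitters' processing notes, which give no software version, and they ran from 2.57 to 13.98 with array medians of 4.50 to 4.62. Per the values themselves they were taken as already normalised and were not changed further. Probe sets were named from the platform annotation, which gave 45253 a single symbol, 1327 several and 2713 none beside 93 controls. Of the single-symbol sets 45172 matched RefSeq, where 0 symbols changed, and 81 kept the file's name. No column was left unused (0). Each of the 18239 genes took its highest-mean single-symbol probe set.

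All 16 arrays entered a limma 3.58.1 fit (lmFit and eBayes, R 4.3.3) with 4 group means, after the dimmest 25% of genes (mean under 3.65) were left out. All 6 pairwise differences were tested, two-sided, at an adjusted p of 0.05 (Benjamini-Hochberg within each over 13680 genes). The procedure was tested on simulated data. Members called against untreated with a change of at least 0.5 are given in all 16 arrays, and up to 4 genes a list were named by the smallest F test p. The members and lists were chosen with earlier results of these data known. Levels of different probe sets are not compared as amounts. Alternatives covered the probe set rule, the filter, scaling, array weights, the samples fitted, thresholds and leaving out each array.

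The labels call the arrays biological replicates but do not say that they came from separate cultures, so a p-value here reflects variation among these arrays, which may be technical. Within groups arrays correlated at 0.996 to 0.999, and no pair shared more than 4.55% of its values. The number of arrays, 4 a group, limits the precision. Protein sequences and a genome were not used here.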

Additional observations from a re-analysis of the deposited data

Results flagged for a closer look

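In 5 of the 68 groups of 4 arrays examined for the tested serpins, 1 array lay far from the other 3, where chance gives about 1 in 20. At 48 h these were SERPINA9 in array 1, at 3.89 against 3.75 to 3.76 in the others, SERPINB9 in array 1, at 3.80 against 4.19 to 4.23, and SERPINE3 in array 3, at 3.61 against 3.81 to 3.84. At 6 h they were SERPING1 in array 1, at 4.03 against 3.79 to 3.81, and SERPINI2 in array 1, at 3.36 against 3.66 to 3.70. All lay at or near the background.

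The change from untreated differed between 48 h and 6 h for 6 of the 17 tested serpins, by the limma test of the difference. For 4 of them it differed between 48 h and 24 h too. Of the 13680 tested genes, 4598 and 3907 were called in these comparisons, so the serpin counts are near the share over all genes. Over all tested genes 13.5% were higher and 15.1% lower between 48 h and 24 h. Between 48 h and 6 h 16.7% were higher and 17% lower. For SERPINA5 the difference was 0.48 between 48 h and 24 h and 0.71 between 48 h and 6 h, and for SERPINI1 it was 0.44 and 0.73. For SERPINB7 it was -0.47 and -0.37, and for SERPINH1 -0.18 and -0.30. SERPINE2 and SERPINF1 differed between 48 h and 6 h, by 0.45 and 0.20. The 48 h against 6 h calls of SERPINB7 and SERPINF1 were lost in 18 and 7 of 29 alternatives. The SERPINH1 call between 48 h and 24 h was lost in 9 of 29.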

How the results depend on the processing

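Over 49 gene and comparison pairs, 1400 values were recomputed: 1301 kept their direction and their side of the threshold, 70 lost the call, 23 gained it and 6 changed sign, none of them called. These 6 were SERPINI1 at 48 h (-0.0524 with cyclic loess), SERPIND1 at 24 h (0.0162 with the mean of its probe sets), SERPIND1, 48 h against untreated (-0.025 with cyclic loess, -0.0304 with array weights, and -0.09 to 0.11 on leaving out each array, the first without 48 h array 4) and SERPINB9 at 48 h (-0.0162 with array weights).

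With a minimum change of 1.5-fold, 5 serpins were called at 6 h, 5 at 24 h and 5 at 48 h against untreated, 0 at 48 h against 24 h and 2 at 48 h against 6 h. With the dimmer 50% of genes left out, 6 were called at 24 h and 5 at 48 h. Of the members called against untreated, this removes SERPINA4, SERPINA5, SERPINB8, SERPINB9 and SERPINE3. At an adjusted p of 0.01, 2 remained for 48 h against 24 h and 3 for 48 h against 6 h. For 24 h against 6 h, 0 became 3 with the mean of the probe sets, 2 with every probe set, 1 with the dimmer 50% left out, 3 with array weights, 1 with only the groups compared and 3 with adjustment over 3 contrasts together. Leaving out each array gave 8 to 10 calls at 6 h, 9 to 11 at 24 h and 8 to 8 at 48 h, 0 to 2 for 24 h against 6 h, 2 to 4 for 48 h against 24 h and 4 to 7 for 48 h against 6 h. Counts here and with the replicate block below show only how the serpin calls moved with the setting. They are not set beside the share of all genes called under it. The cause was not tested. Near background, 16 to 25 members were found under the other limits.

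The labels do not say whether same-numbered arrays were paired, and the main fit does not pair them. Deviations of same-numbered arrays correlated weakly, at -0.15 to 0.18, above 0.1 in 8 of 24 pairs, which cannot settle it. With the replicate block, 9, 10 and 8 serpins were called against untreated, 0 for 24 h against 6 h, 5 for 48 h against 24 h and 5 for 48 h against 6 h. Near the background, log2 values understate differences, so the small changes there are the least certain.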

Other observations

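Genes beside the changed serpins in RefSeq's gene order did not share their direction throughout. Beside SERPINH1, MAP6, which encodes a neuronal microtubule-stabilising protein, rose by 1.07 ± 0.07 (SE) at 6 h (limma adjusted p = 1.04e-09), by 1.13 at 24 h and by 1.25 at 48 h. Beside SERPINI1, GOLIM4, a Golgi membrane protein, fell by 1.02 ± 0.12 at 6 h (adjusted p = 1.46e-06) and was still lower by 0.91 at 48 h, when SERPINI1 read at its untreated level, and PDCD10 on the other side rose by 0.14 ± 0.05 at 6 h (adjusted p = 0.0367). MECOM, a transcription factor gene next to GOLIM4, fell by 1.82 ± 0.11 at 6 h (adjusted p = 1.98e-10), to 3.75, under the background ceiling. Beside SERPINE2, the change of MRPL44 at 6 h was -0.06 and did not pass, and that of WDFY1 was -0.28 and passed (adjusted p = 0.00188). Beside SERPINF1, SMYD4 rose by 0.26 ± 0.06 at 6 h (adjusted p = 0.00187), and beside SERPINB1, WRNIP1 rose by 0.19 ± 0.05 (adjusted p = 0.00717).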
